A study of Homo sapiens with 15 samples.

Results

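The genes of TRAIL, its receptors and the proteins that pass on its death signal were examined in the RNA of HEK293T cells, a human embryonic kidney cell line. The set held 10 of the 58735 genes in the deposited tables, namely TNFSF10, TNFRSF10A, TNFRSF10B, TNFRSF10C, TNFRSF10D, FADD, CASP8, CASP10, CFLAR and BID. The genes were listed by name, and the set was chosen on a measured value, the near silence of TNFRSF10D in RHBDD2-CKO. That value is therefore given as a description with no test. The study compared 5 groups of HEK293T clones, with 3 culture wells and 3 libraries per group. In the knockout groups, named C9orf89-CKO, MAGI2-CKO, MLPH-CKO and, for the last, RHBDD2-CKO, the cells carried a lentiviral CRISPR vector with Cas9 and a guide RNA against the gene in the group's name. Non-target, whose genotype is labelled WT, carried the same vector with a guide that matches no gene. All groups, Non-target included, had been transduced, selected with puromycin and grown from limiting dilution, and no drug or co-cultured cell was named for the RNA samples. Each group was 1 clone, so that the loss of a gene and any other difference between clones cannot be told apart, and p-values measure the spread between wells of a clone. All 4 comparisons with the control used the same 3 Non-target wells. A library held 15517856 to 19489918 fragments on genes. In each group the well numbered 1 stood further from the others, with a root mean square log2 difference over genes of 0.61 to 0.71, against 0.55 to 0.61 between wells 2 and 3.

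TRAIL is a ligand of the tumour necrosis factor family that can start apoptosis in a cell that carries its receptors. TNFRSF10A and TNFRSF10B encode receptors with a death domain, which recruits the adaptor FADD and through it the initiator caspases CASP8 and CASP10. TNFRSF10C and TNFRSF10D encode decoy receptors that bind TRAIL without a working death domain. CFLAR encodes c-FLIP, which resembles CASP8 and restrains it at the receptor. BID is cut by CASP8 and carries the signal to mitochondria, where proteins of the BCL2 family decide on the release of cytochrome c.

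Among the tested genes of the set, the largest differences from Non-target lay in a decoy receptor and in an initiator caspase. TNFRSF10D and CASP10 were lower in the knockout clones than in Non-target, while CASP8 and CFLAR, the neighbours of CASP10 on chromosome 2, did not pass the threshold against Non-target in any clone. TNFRSF10B was the most abundant TRAIL receptor in every group and fell by a smaller amount in C9orf89-CKO, MAGI2-CKO and RHBDD2-CKO, while its difference in MLPH-CKO did not pass the threshold. Values are in FPKM, fragments per kilobase of exon scaled to the depth of the library. The length counts all annotated exons of a gene merged. Levels of a gene can thus be compared between groups, and those of different genes only roughly. Of the 10 genes, 7 passed the filter of the test (at least 0.5 FPKM in at least 3 libraries, passed by 16175 genes), and TNFSF10, TNFRSF10A and TNFRSF10C did not.

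**Figure D1:**
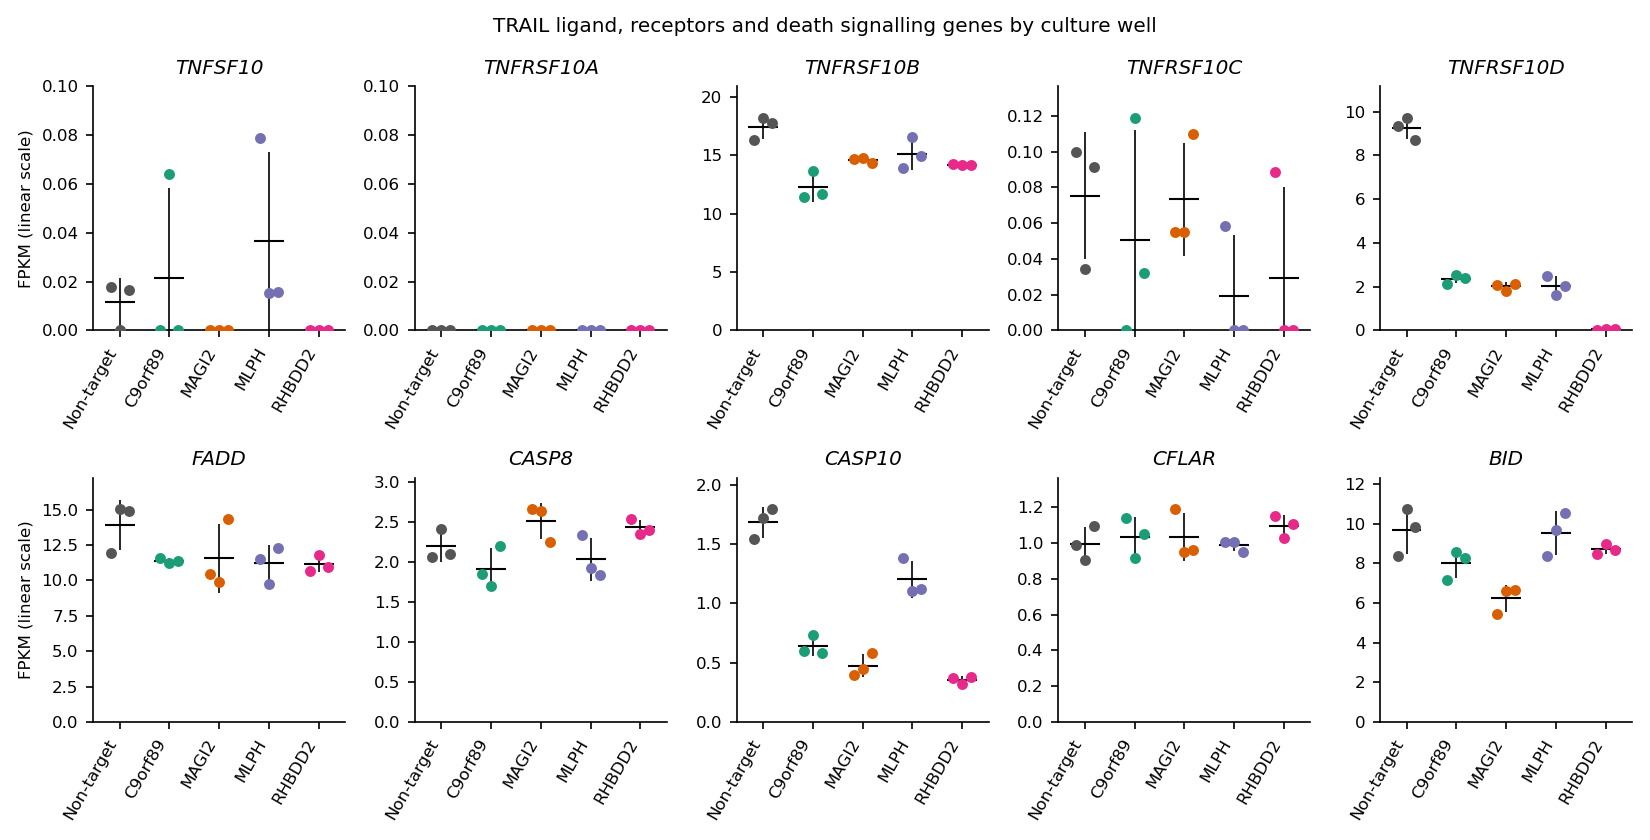
FPKM on a linear axis that starts at 0 for the 10 genes, with 1 point per culture well, a bar at the group mean and a vertical line of 1 SD, cut at 0 (n = 3 wells). TNFRSF10D was at 8.71 to 9.71 FPKM in the Non-target wells and at most 0.0695 FPKM in the RHBDD2-CKO wells, and TNFRSF10A was at 0 in every well.

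The RNA of the targeted genes gives a partial check of the labels. RHBDD2 held 27.4, 38.1 and 34.9 FPKM in the Non-target wells against 11.2, 13.5 and 12.4 FPKM in its own clone, and fell by 1.42 on the log2 scale (adjusted p = 7.56e-06 in limma). It also fell by 1.27 in MAGI2-CKO, to 11.7, 13.8 and 16.0 FPKM (adjusted p = 1.55e-05 in limma). The difference of −0.15 between RHBDD2-CKO and MAGI2-CKO did not pass the threshold (adjusted p = 0.405 in limma), and their wells overlapped. C9orf89, listed as CARD19, held 5.70, 7.71 and 6.27 FPKM in the control wells against 4.34, 4.27 and 4.34 FPKM in its own clone (log2 fold change −0.58, adjusted p = 0.000977 in limma). It also fell by 0.44 in RHBDD2-CKO, to 4.52, 5.17 and 4.69 FPKM (adjusted p = 0.00489 in limma), though not with TPM or a fit of the 2 groups alone (adjusted p up to 0.0840). The difference of 0.15 between RHBDD2-CKO and C9orf89-CKO did not pass the threshold (adjusted p = 0.320 in limma). MAGI2 had 32 to 68 fragments per library in all groups and MLPH was listed at 0 in all 15 libraries, so that their RNA does not check the labels of these clones. An insertion or deletion in a coding exon need not change the level of an RNA.

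TNFRSF10B (ENSG00000120889, chromosome 8 from 23020133 to 23069179 in GRCh38, minus strand) was the main TRAIL receptor RNA of these cells. Its wells held 16.3, 18.2 and 17.8 FPKM for Non-target, 11.4, 13.7 and 11.7 FPKM for C9orf89-CKO and 14.7, 14.8 and 14.3 FPKM in MAGI2-CKO. They held 13.9, 16.6 and 14.9 FPKM in MLPH-CKO and 14.3, 14.2 and 14.2 FPKM in RHBDD2-CKO. The C9orf89-CKO wells were the lowest, and those of MLPH-CKO overlapped with Non-target. TNFRSF10B fell by 0.51 on the log2 scale in C9orf89-CKO (standard error 0.08, adjusted p = 0.000438 in limma). It fell by 0.25 in MAGI2-CKO (adjusted p = 0.0227 in limma) and by 0.29 in RHBDD2-CKO (adjusted p = 0.0116 in limma). The difference of −0.21 in MLPH-CKO did not pass the threshold (adjusted p = 0.0637 in limma), and it passed without Non-target replicate 1 (0.0444) or MLPH-CKO replicate 2 (0.0263). The call in MAGI2-CKO was lost without Non-target replicate 2 (adjusted p = 0.0800 in limma), Non-target replicate 3 (0.0705) or MAGI2-CKO replicate 3 (0.0675). With the libraries rescaled to TPM, which moved the median of all genes in RHBDD2-CKO by 0.15, the difference there was −0.14 (adjusted p = 0.309 in limma), and that in MAGI2-CKO was −0.27 (adjusted p = 0.0590). The latter was −0.20 with quantile normalization (adjusted p = 0.0559 in limma).

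Between the clones, TNFRSF10B was lowest in C9orf89-CKO. It was lower there than in MAGI2-CKO, where the level was higher by 0.25 (adjusted p = 0.0331 in limma), and than in MLPH-CKO, where it was higher by 0.30 (adjusted p = 0.0217 in limma). Each of these calls was lost when a library was left out, that with MAGI2-CKO without 5 of the 6 libraries (adjusted p up to 0.116 in limma) and that with MLPH-CKO without 4 of the 6 (up to 0.0897). Both were also lost with TPM (0.227 and 0.151) and in a fit of the 2 groups alone (0.0806 and 0.130). The other pairs of clones did not pass the threshold for TNFRSF10B. Among them was RHBDD2-CKO against C9orf89-CKO, at 0.21 (adjusted p = 0.056 in limma).

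TNFRSF10A (ENSG00000104689, chromosome 8 from 23190452 to 23225126), the other receptor with a death domain, was listed at 0 in all 15 libraries. A count of 0 allows up to 3 fragments, which is 0.0521 to 0.0657 FPKM depending on the library. No fragment of the receptor was thus found where TNFRSF10B had 973 to 1610 fragments per library. TNFSF10 (ENSG00000121858, chromosome 3 from 172505508 to 172523507), the gene of TRAIL itself, had 13 fragments over all libraries, 0 in 9 of them and at most 5 in any. The decoy receptor TNFRSF10C (ENSG00000173535, chromosome 8 from 23102590 to 23117437) had 25 fragments over all libraries and at most 4 in any. At this depth no difference between groups could be shown for these genes, and 39.3% of the exon bases of TNFRSF10C also lie in exons of other genes.

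TNFRSF10D (ENSG00000173530, chromosome 8 from 23135588 to 23164030, minus strand), the expressed decoy receptor, differed most. Its Non-target wells held 9.35, 9.71 and 8.71 FPKM (531 to 541 fragments). C9orf89-CKO held 2.14, 2.53 and 2.39 FPKM, MAGI2-CKO 2.10, 1.81 and 2.14 FPKM and MLPH-CKO 2.48, 1.64 and 2.05 FPKM. Every well of these 3 clones lay below every Non-target well, and the wells of the 3 clones overlapped each other. TNFRSF10D fell by 1.93 on the log2 scale in C9orf89-CKO (standard error 0.17, adjusted p = 3.60e-06 in limma). The log2 fold change was −2.15 in MAGI2-CKO (adjusted p = 8.59e-07 in limma) and −2.14 in MLPH-CKO (adjusted p = 1.34e-06 in limma). As means, Non-target held 3.93 times the level of C9orf89-CKO, 4.59 times that of MAGI2-CKO and 4.51 times that of MLPH-CKO. These tests share the Non-target wells with the value that chose the set. Among the 3 clones, the adjusted p-values were 0.402 to 0.981 in limma, with differences of −0.21, −0.20 and 0.01 and a standard error of 0.17.

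In RHBDD2-CKO the RNA of TNFRSF10D was nearly absent, at 0.0156, 0.0668 and 0.0695 FPKM, which stands for 1, 4 and 4 fragments. The mean of Non-target was 183 times that of RHBDD2-CKO. From the summed fragments, 1604 against 9, each divided by the summed depth of its group (the depth scale behind FPKM), the ratio was 186 with a 95% exact interval of 98.0 to 409 that covers counting error only. The log2 difference of −5.98 depended on the constant added before the log and was −3.29 with 1 FPKM and −7.43 with 0.01 FPKM in place of 0.1 FPKM. In a bulk sample, fewer cells with the RNA and less of it per cell cannot be told apart.

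The balance of the receptor RNAs shifted with TNFRSF10D. These ratios restate its values and are a description, and that of RHBDD2-CKO holds the value that chose the set. The level of TNFRSF10D relative to that of TNFRSF10B was 0.533 ± 0.0419 (SD, n = 3 wells) in Non-target. The ratio was 0.192 ± 0.0109 for C9orf89-CKO, 0.138 ± 0.0144 for MAGI2-CKO, 0.138 ± 0.0400 for MLPH-CKO and 0.00357 ± 0.00215 for RHBDD2-CKO. No clone well reached the lowest Non-target ratio of 0.490, the highest being 0.205 in C9orf89-CKO. How fragments that fit more than 1 receptor gene were counted was not given in the sources used here.

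FADD (ENSG00000168040, chromosome 11 from 70203163 to 70207390), the adaptor, had a mean of 13.9 ± 1.76 FPKM (SD) over the Non-target wells. The clone means were lower and close together, with 11.4 ± 0.189 FPKM for C9orf89-CKO, 11.6 ± 2.42 for MAGI2-CKO, 11.2 ± 1.31 for MLPH-CKO and 11.1 ± 0.569 for RHBDD2-CKO. The log2 differences of −0.28, −0.28, −0.31 and −0.31 did not pass the threshold (standard error 0.13, adjusted p from 0.0855 to 0.144 in limma). Within Non-target, replicate 1 stood at 11.9 FPKM, below the other wells, the lower of which held 14.9 FPKM. Without it the adjusted p in limma was 0.0469 for MAGI2-CKO, 0.0406 for MLPH-CKO and 0.0332 for RHBDD2-CKO, and without MAGI2-CKO replicate 3 that for MAGI2-CKO was 0.0102. Of the exon bases of FADD, 54.9% also lie in exons of other genes.

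Of the initiator caspases, CASP10 passed the threshold against Non-target and CASP8 did not. CASP10 (ENSG00000003400, chromosome 2 from 201182881 to 201229406) held 1.54, 1.72 and 1.79 FPKM in the Non-target wells. Those of C9orf89-CKO held 0.598, 0.731 and 0.584 FPKM, and those of MAGI2-CKO 0.393, 0.448 and 0.580 FPKM. The MLPH-CKO wells were at 1.38, 1.10 and 1.12 FPKM and the RHBDD2-CKO wells at 0.370, 0.319 and 0.380 FPKM. No clone well reached the lowest Non-target well, and MLPH-CKO lay between Non-target and the other clones. CASP10 fell by 1.28 on the log2 scale in C9orf89-CKO (standard error 0.16, adjusted p = 8.16e-05 in limma). The log2 fold change was −1.65 in MAGI2-CKO (adjusted p = 5.72e-06 in limma) and −1.97 in RHBDD2-CKO (adjusted p = 1.71e-06 in limma). It fell by 0.46 in MLPH-CKO, close to the threshold (adjusted p = 0.0443 in limma). That call was lost without Non-target replicate 1 (adjusted p = 0.0549), replicate 2 (0.105) or replicate 3 (0.134), and without MLPH-CKO replicate 2 (0.137) or replicate 3 (0.129). It was also lost with no filter on low values (0.0922), a constant of 0.01 FPKM (0.0596), TPM (0.0651) and a fit of the 2 groups alone (0.0582).

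The order of the clones for CASP10 was MLPH-CKO, C9orf89-CKO, MAGI2-CKO and RHBDD2-CKO. MLPH-CKO lay above C9orf89-CKO by 0.82 on the log2 scale (adjusted p = 0.00397 in limma) and above MAGI2-CKO by 1.19 (adjusted p = 0.000168). RHBDD2-CKO differed from MLPH-CKO by −1.51 (adjusted p = 1.15e-05 in limma) and from C9orf89-CKO by −0.69 (adjusted p = 0.00526). The neighbours C9orf89-CKO and MAGI2-CKO (adjusted p = 0.115) and MAGI2-CKO and RHBDD2-CKO (adjusted p = 0.126) did not pass the threshold in limma, although their wells did not overlap. Each of the 4 calls between clones held with each library of the pair left out.

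CASP8 (ENSG00000064012, chromosome 2 from 201233443 to 201287711) had a mean of 2.19 ± 0.189 FPKM over the Non-target wells. The clone means were 1.91 ± 0.257 FPKM for C9orf89-CKO, 2.51 ± 0.226 for MAGI2-CKO, 2.03 ± 0.270 for MLPH-CKO and 2.43 ± 0.0943 for RHBDD2-CKO. Its wells overlapped with Non-target in each clone, and no difference against Non-target passed the threshold (adjusted p from 0.243 to 0.532 in limma). Between clones, CASP8 was higher than in C9orf89-CKO in MAGI2-CKO, by 0.38 (adjusted p = 0.0345 in limma), and in RHBDD2-CKO, by 0.34 (adjusted p = 0.0480 in limma). The former call was lost without 4 of the 6 libraries (adjusted p up to 0.141) and the latter without 5 of the 6 (up to 0.176). The level of CASP10 relative to CASP8 was 0.771 ± 0.0732 for Non-target and 0.593 ± 0.0186 for MLPH-CKO. The other clones had ratios of 0.340 ± 0.0838 (C9orf89-CKO), 0.192 ± 0.0579 (MAGI2-CKO) and 0.147 ± 0.0113 (RHBDD2-CKO).

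CFLAR (ENSG00000003402, chromosome 2 from 201116104 to 201176687), the inhibitor, had nearly level means. They were 0.997 FPKM for Non-target, 1.04 for C9orf89-CKO, 1.03 for MAGI2-CKO, 0.987 for MLPH-CKO and 1.10 for RHBDD2-CKO. The log2 differences from Non-target lay between −0.01 and 0.13 with a standard error of 0.12 (adjusted p from 0.466 to 0.968 in limma). The wells of each clone overlapped with those of Non-target. The ratio of CASP8 to CFLAR ran from 1.85 ± 0.236 in C9orf89-CKO to 2.44 ± 0.284 in MAGI2-CKO, with 2.22 ± 0.388 in Non-target. It serves to compare groups and does not show which RNA is the more abundant. The merged exons of CFLAR add up to 22529 bases and those of CASP8 to 7243. Over the Non-target wells CFLAR had 1107 fragments and CASP8 777.

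BID (ENSG00000015475, chromosome 22 from 17734138 to 17774770) was lowest in MAGI2-CKO. Its wells held 8.39, 10.7 and 9.86 FPKM in Non-target and 5.46, 6.62 and 6.66 FPKM in MAGI2-CKO. The other clones had means of 8.01 FPKM in C9orf89-CKO, 9.52 FPKM in MLPH-CKO and 8.71 FPKM in RHBDD2-CKO. BID fell by 0.62 on the log2 scale in MAGI2-CKO (standard error 0.11, adjusted p = 0.000889 in limma). MAGI2-CKO also lay below MLPH-CKO by 0.60 (adjusted p = 0.00210 in limma), RHBDD2-CKO by 0.48 (adjusted p = 0.00419) and C9orf89-CKO, where the difference was −0.35 (adjusted p = 0.0388). The last of these was lost without 5 of the 6 libraries (adjusted p up to 0.138 in limma). The difference of −0.26 between C9orf89-CKO and Non-target did not pass the threshold (adjusted p = 0.106 in limma), and it passed without Non-target replicate 1 (0.0387) and with the wells numbered 1 of all groups left out (0.0129). That setting also took the difference in RHBDD2-CKO to −0.22 (adjusted p = 0.0274), from −0.14.

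Counted together, 3 of the 7 tested genes were lower in C9orf89-CKO (TNFRSF10D, CASP10 and TNFRSF10B), where 13.1% of all tested genes were lower and 12.9% higher. In MAGI2-CKO 4 of 7 were lower (TNFRSF10D, CASP10, BID and TNFRSF10B), against 19.1% lower and 17.0% higher among all genes. In MLPH-CKO 2 of 7 were lower (TNFRSF10D and CASP10), against 15.5% lower and 14.5% higher. In RHBDD2-CKO 2 of the 6 genes with a test were lower (CASP10 and TNFRSF10B), against 16.7% lower and 17.4% higher. No gene of the set was higher than in Non-target past the threshold. The median log2 fold change of the tested members was −0.28, −0.28, −0.21 and −0.22, in the same order of clones, where that of all tested genes lay within 0.01 of 0. With the wells numbered 1 left out, 4 genes were lower for C9orf89-CKO and 4 for MAGI2-CKO, 2 for MLPH-CKO and 3 for RHBDD2-CKO. That setting also moved the lower genes among all 16175 from 2119 to 2776 for C9orf89-CKO, from 3088 to 3504 for MAGI2-CKO, from 2515 to 3289 for MLPH-CKO and from 2698 to 3586 for RHBDD2-CKO. As the set was chosen with results of these data known, and as only expressed genes have a test, these counts are a description. With the libraries rescaled to TPM, the share of higher genes among all genes past the threshold rose to 61.8% in C9orf89-CKO, where it had been 49.7%, and to 73.4% in RHBDD2-CKO, where it had been 51.0%. With voom on the fragments it was 61.3% in RHBDD2-CKO.

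Between clones, the shares of all tested genes past the threshold in either direction give the background of the calls above. They were 22.5% for MAGI2-CKO against C9orf89-CKO, with 3 of the 7 genes past it, and 14.2% for MLPH-CKO against C9orf89-CKO, with 2 of 7. They were 29.3% for RHBDD2-CKO against C9orf89-CKO, with 2 of the 6 genes that have a test, and 21.2% for MLPH-CKO against MAGI2-CKO, with 2 of 7. They were 41.6% for RHBDD2-CKO against MAGI2-CKO, with 1 of 6, and 37.0% for RHBDD2-CKO against MLPH-CKO, with 1 of 6.

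The 4 receptor genes form a cluster of 205 kb on chromosome 8, from 23020133 to 23225126. The nearest tested genes on either side, RHOBTB2 and CHMP7, did not pass the threshold in any clone. In RHBDD2-CKO, RHOBTB2 differed by −0.13 (adjusted p = 0.477 in limma) and CHMP7 by −0.08 (adjusted p = 0.600 in limma). The nearest to a call was CHMP7 in MLPH-CKO, at −0.28 (adjusted p = 0.0503 in limma). Of the 20 nearest tested genes, 10 on each side, C9orf89-CKO and MLPH-CKO each had 3 lower and 0 higher. MAGI2-CKO had 3 lower and 2 higher, and RHBDD2-CKO 7 lower and 1 higher. Their median log2 fold change was −0.11 for C9orf89-CKO, 0.05 for MAGI2-CKO, −0.11 for MLPH-CKO and −0.14 for RHBDD2-CKO. The share of lower genes was 35% in RHBDD2-CKO, where it was 16.7% among all genes. It was 15% in each of the other clones, beside 13.1% of all genes for C9orf89-CKO, 19.1% for MAGI2-CKO and 15.5% for MLPH-CKO.

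Genes lower in RHBDD2-CKO lay on both sides of the cluster. On one side SORBS3, PDLIM2 and C8orf58 start 0.619, 0.586 and 0.564 Mb from TNFRSF10D. SORBS3, the gene of an adaptor protein of the cytoskeleton, fell by 0.63, from 7.11 to 4.58 FPKM (adjusted p = 3.51e-05 in limma). PDLIM2 fell by 0.80, from 0.473 to 0.230 FPKM (adjusted p = 0.00734 in limma). C8orf58 fell by 0.68, from 1.13 to 0.665 FPKM (adjusted p = 0.0151 in limma), a call lost without Non-target replicate 1 or RHBDD2-CKO replicate 2 (up to 0.0577). On the other side R3HCC1, which starts 0.106 Mb from TNFRSF10D, fell by 0.35 in RHBDD2-CKO (adjusted p = 0.00311 in limma, and 0.131 with TPM). It fell by 0.25 in C9orf89-CKO (adjusted p = 0.0243 in limma) and by 0.26 in MAGI2-CKO (adjusted p = 0.0161). Both calls were lost without Non-target replicate 2, that in C9orf89-CKO also without Non-target replicate 3 or C9orf89-CKO replicate 1 or 2, and that in MAGI2-CKO also without MAGI2-CKO replicate 1 (up to 0.0695). LOXL2, a lysyl oxidase gene that starts 0.261 Mb from TNFRSF10D, fell by 0.92 in RHBDD2-CKO, from 2.81 to 1.43 FPKM (adjusted p = 0.000282 in limma). NEFM, a neurofilament gene that starts 1.75 Mb away, fell by 4.23 in RHBDD2-CKO, from 27.2 to 1.34 FPKM (adjusted p = 2.38e-06 in limma). It fell by 7.73 in MAGI2-CKO, to 0.0274 FPKM (adjusted p = 1.02e-08 in limma), a size that depends on the constant of 0.1 FPKM as those wells held 7 fragments in all. Well 1 of Non-target held 38.4 FPKM of NEFM against 21.4 and 21.8 FPKM in its other wells, and well 1 was also the highest in each clone. The falls of SORBS3, PDLIM2, LOXL2 and NEFM in RHBDD2-CKO held with each library left out.

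**Figure D2:**
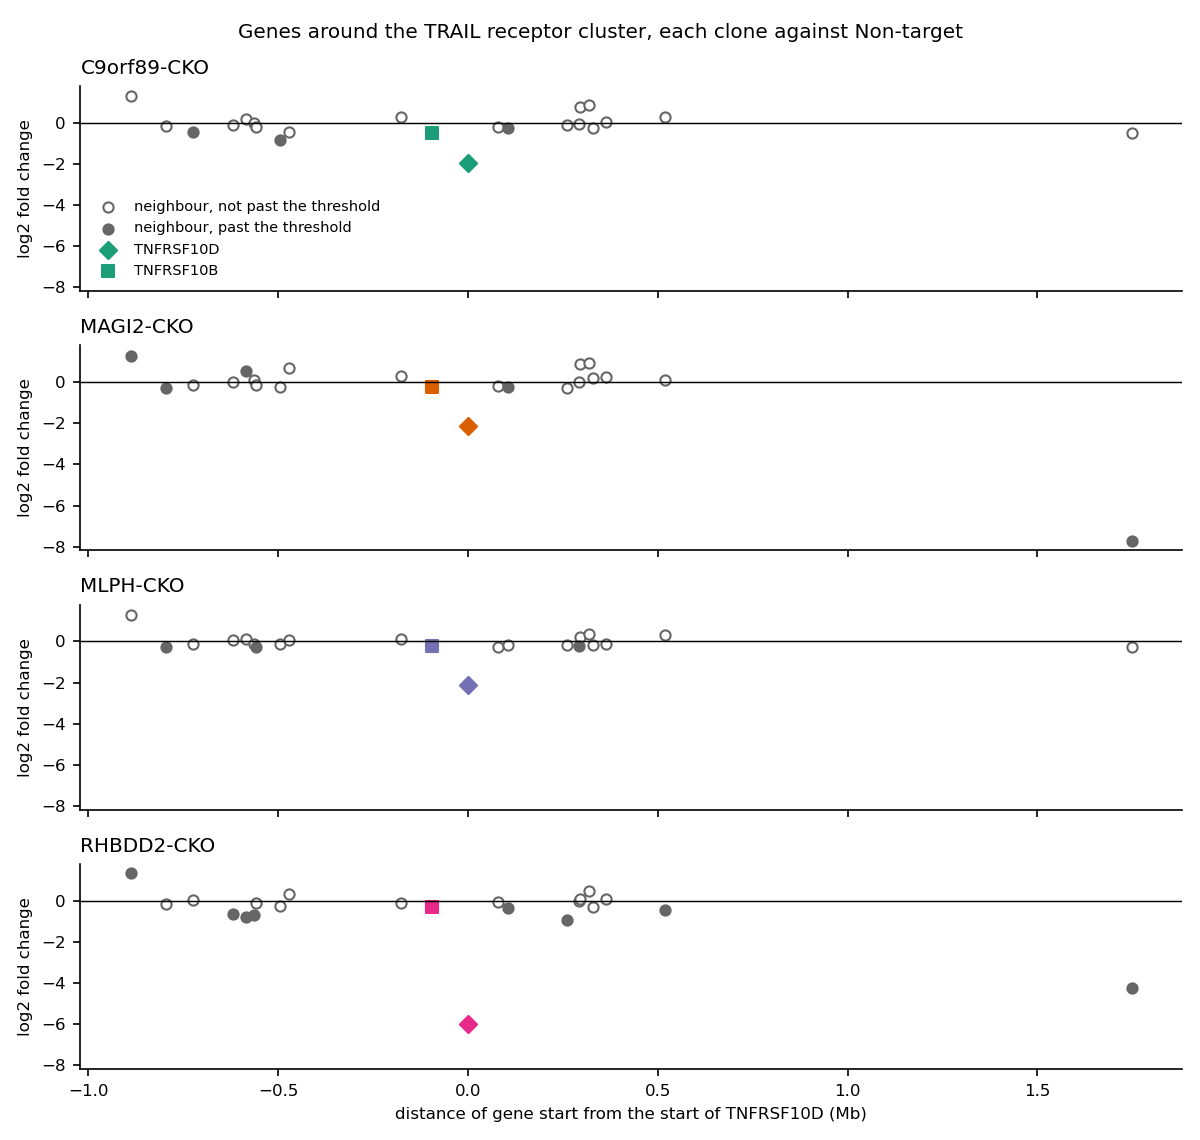
Log2 fold change against Non-target of the 20 tested genes nearest to the receptor cluster, TNFRSF10B (square) and TNFRSF10D (diamond), by the distance of the gene start from that of TNFRSF10D in Mb, 1 panel per clone. Filled grey points passed the threshold. RHOBTB2 and CHMP7, beside the cluster, lie between −0.28 and 0.31, and the lowest grey points in MAGI2-CKO and RHBDD2-CKO are NEFM at −7.73 and −4.23.

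CFLAR, CASP10 and CASP8 form a second cluster, of 172 kb on chromosome 2 from 201116104 to 201287711, in which only the gene in the middle passed the threshold against Non-target. The genes around it were looked at after the values of CASP10 had been seen. Of the 20 nearest tested genes, C9orf89-CKO had 1 lower and 2 higher, and MAGI2-CKO 1 lower and 0 higher. MLPH-CKO had 2 lower and 0 higher, and RHBDD2-CKO 2 lower and 4 higher. The share of lower genes was thus 5% for C9orf89-CKO and MAGI2-CKO and 10% for MLPH-CKO and RHBDD2-CKO, below the 13.1%, 19.1%, 15.5% and 16.7% of all genes in the same order. Their median log2 fold change ran from −0.02 in MAGI2-CKO to 0.16 in RHBDD2-CKO.

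Outside the set, the genes whose pattern over the 15 libraries was most like that of TNFRSF10D were TGFBR2, ZNF502, RAB32, PNMA2 and SUSD5. Their Pearson correlations with TNFRSF10D on the log2 scale were 0.985, 0.971, 0.971, 0.969 and 0.968, the highest of all tested genes outside the set. They are a description, since each clone gave 3 of the libraries and the RHBDD2-CKO wells, which chose the set, were among them. TGFBR2, the gene of a receptor of transforming growth factor beta, had a mean of 3.73 ± 0.0678 FPKM for Non-target. The clone means were 1.33 ± 0.127 FPKM for C9orf89-CKO, 0.857 ± 0.0610 for MAGI2-CKO, 1.42 ± 0.173 for MLPH-CKO and 0.0127 ± 0.0126 for RHBDD2-CKO. RAB32, the gene of a small GTPase, went from 22.9 ± 2.59 FPKM for Non-target to 4.36 ± 0.256 FPKM for RHBDD2-CKO. ZNF502 had a mean of 0.771 ± 0.0910 FPKM for Non-target and was listed at 0 in the RHBDD2-CKO wells. Its other clone means were at most 0.262 FPKM, so that it passed the filter only through Non-target. The 5 genes had their highest mean in Non-target and their lowest in RHBDD2-CKO, an order that the choice by correlation with TNFRSF10D favours and that is no separate result. TGFBR2, ZNF502 and SUSD5 lie on chromosome 3, RAB32 on chromosome 6 and PNMA2 on chromosome 8. Within the set the correlation with TNFRSF10D was highest for CASP10 (0.786), followed by FADD (0.466), TNFRSF10B (0.356) and BID (0.0690), and it was below 0 for CASP8 (−0.320) and CFLAR (−0.410). These values include the RHBDD2-CKO wells too.

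The other genes of apoptosis were taken from 5 lists by function, with 60 genes of which 46 could be tested. C9orf89-CKO had 10 higher and 10 lower (21.7% each), and MAGI2-CKO 8 higher (17.4%) and 14 lower (30.4%). MLPH-CKO had 8 higher (17.4%) and 13 lower (28.3%), and RHBDD2-CKO 9 higher (19.6%) and 7 lower (15.2%). The shares among all tested genes are those given above. Of the 20, 22, 21 and 16 genes past the threshold, 10, 15, 12 and 12 stayed past it with each library of the comparison left out in turn. The total of C9orf89-CKO went from 20 to 13 without its replicate 2 or Non-target replicate 3 and to 12 without its replicate 3. That of MLPH-CKO went from 21 to 12 in a fit of the 2 groups alone.

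Among the other death receptors and ligands, 5 of 12 genes could be tested, and FASLG and TNF were not among them. C9orf89-CKO had 3 lower and 2 higher, and MAGI2-CKO 3 lower and 1 higher. MLPH-CKO had 2 lower and 2 higher, and RHBDD2-CKO 1 lower and 0 higher. FAS, the receptor of FAS ligand, which also acts through FADD and CASP8, had a mean of 2.22 ± 0.155 FPKM for Non-target. It fell to 1.21 ± 0.112 FPKM in C9orf89-CKO (log2 fold change −0.82, adjusted p = 0.00153 in limma) and to 0.866 ± 0.177 FPKM in RHBDD2-CKO (−1.28, adjusted p = 4.02e-05). Its fall of 0.41 in MAGI2-CKO (adjusted p = 0.0480 in limma) stayed past the threshold in only 1 of the 6 fits with a library left out, the one without MAGI2-CKO replicate 1 (up to 0.200 in the others). TNFRSF21, the gene of another death receptor, fell by 0.59 in MAGI2-CKO, from 9.02 to 5.97 FPKM (adjusted p = 0.000964 in limma). Its falls of 0.37 in C9orf89-CKO (adjusted p = 0.0226 in limma) and 0.34 in MLPH-CKO (adjusted p = 0.0304) were both lost without Non-target replicate 3. The former was also lost without C9orf89-CKO replicate 1 or 2, and the latter without Non-target replicate 1 or MLPH-CKO replicate 1 or 2 (adjusted p up to 0.130). TNFRSF1A, the main receptor of tumour necrosis factor, had a mean of 13.6 FPKM for Non-target. It fell by 0.44 in C9orf89-CKO, to 9.99 FPKM (adjusted p = 0.00642 in limma), and by 0.42 in MAGI2-CKO, to 10.2 FPKM (adjusted p = 0.00630), and both calls held with each library left out. It fell by 0.38 in MLPH-CKO, to 10.5 FPKM (adjusted p = 0.0139 in limma). The last call was lost without Non-target replicate 3 or MLPH-CKO replicate 1 (adjusted p up to 0.0613).

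Of the adaptors and their ubiquitin or kinase partners, 11 of 13 could be tested. C9orf89-CKO and MLPH-CKO each had 2 lower and 0 higher. MAGI2-CKO had 2 lower and 1 higher, and RHBDD2-CKO 0 lower and 1 higher. RIPK1, a kinase at death receptors that takes part in survival and in death signalling, went in opposite directions. It fell by 0.45 in MAGI2-CKO, from 7.52 to 5.49 FPKM (adjusted p = 0.000583 in limma), and rose by 0.63 in RHBDD2-CKO, to 11.7 FPKM (adjusted p = 5.29e-05 in limma). RBCK1, a subunit of the linear ubiquitin ligase, fell by 0.44 in C9orf89-CKO (adjusted p = 0.00542 in limma). FAF1, a FAS-associated factor, fell by 0.32 in MLPH-CKO (adjusted p = 0.0457 in limma), a call that stayed past the threshold in only 1 of the 6 fits with a library left out, the one without Non-target replicate 1 (adjusted p up to 0.147 in the others).

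The other caspases, the apoptosome and caspase substrates, all 11 of them tested, had more genes higher than lower. C9orf89-CKO had 7 higher and 1 lower, and MAGI2-CKO 5 higher and 4 lower. MLPH-CKO had 5 higher and 2 lower, and RHBDD2-CKO 4 higher and 1 lower. The median log2 fold change of the list was 0.26 for C9orf89-CKO, 0.14 for MAGI2-CKO, 0.20 for MLPH-CKO and 0.22 for RHBDD2-CKO. DFFA, the inhibitor of the nuclease that cuts DNA in apoptosis, rose from 24.8 FPKM to 38.3 ± 1.88 FPKM in C9orf89-CKO (log2 fold change 0.63, adjusted p = 5.86e-05 in limma) and to 46.2 ± 4.24 FPKM in RHBDD2-CKO (0.89, adjusted p = 2.26e-06 in limma). It rose to 33.2 ± 1.02 FPKM in MAGI2-CKO (0.42, adjusted p = 0.000717 in limma). LMNA, the gene of lamin A and C, rose by 0.49 in MAGI2-CKO (adjusted p = 0.000216 in limma) and by 0.56 in MLPH-CKO (adjusted p = 0.000106 in limma). CASP9, another caspase, was higher past the threshold for every clone. It rose by 0.48 for C9orf89-CKO (adjusted p = 0.00224 in limma) and by 0.49 for MLPH-CKO (adjusted p = 0.00161). The rise for MAGI2-CKO was 0.38 (adjusted p = 0.00645 in limma, and 0.0689 in a fit of the 2 groups alone). That of 0.33 for RHBDD2-CKO (adjusted p = 0.0166 in limma) was lost in such a fit too and in 3 of the 6 with a library left out. The named genes that rose were thus a nuclease inhibitor, a caspase substrate and a caspase.

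Of the genes that fell, CYCS, the gene of cytochrome c, fell from 74.9 ± 8.04 FPKM to 39.8 ± 6.91 FPKM in MAGI2-CKO (log2 fold change −0.92, adjusted p = 0.00446 in limma). CASP6, another caspase, had a mean of 10.9 FPKM for Non-target and fell by 0.55 in MAGI2-CKO, to 7.41 FPKM (adjusted p = 0.000120 in limma), and by 0.36 in MLPH-CKO (adjusted p = 0.00334). It rose by 0.26 in C9orf89-CKO (adjusted p = 0.0244 in limma), a call lost without Non-target replicate 2 or 3 or C9orf89-CKO replicate 2 or 3 (adjusted p up to 0.101). PARP1, a repair enzyme that caspases cleave, had a mean of 282.6 FPKM for Non-target and was lower past the threshold for every clone. It fell by 0.28 in MAGI2-CKO (adjusted p = 0.00172 in limma). It fell by 0.29 in RHBDD2-CKO (adjusted p = 0.00163 in limma), and not with TPM or quantile normalization (adjusted p up to 0.407). Its fall of 0.23 in MLPH-CKO (adjusted p = 0.00887 in limma) was lost with quantile normalization or a fit of the 2 groups alone (up to 0.234). Its fall of 0.18 in C9orf89-CKO (adjusted p = 0.0356 in limma) was lost whichever of the 6 libraries was left out (adjusted p up to 0.0983).

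Of the IAP proteins, which restrain caspases, and their antagonists, 5 of 9 could be tested. C9orf89-CKO and MLPH-CKO each had 1 lower and 0 higher. MAGI2-CKO had 2 lower and 0 higher, and RHBDD2-CKO 2 lower and 1 higher. XIAP, an inhibitor of caspases, fell from 10.5 ± 1.32 FPKM to 6.42 ± 0.453 FPKM in RHBDD2-CKO (log2 fold change −0.69, adjusted p = 0.000741 in limma). BIRC6, a giant IAP protein, rose there by 0.61, from 4.48 to 6.76 FPKM (adjusted p = 0.00669 in limma, and 0.0615 in a fit of the 2 groups alone). BIRC2 fell by 0.47 in MAGI2-CKO (adjusted p = 0.00194 in limma). The falls of XIAP in MLPH-CKO (−0.38, adjusted p = 0.0304 in limma) and of the antagonist HTRA2 in C9orf89-CKO (−0.31, adjusted p = 0.0356 in limma) were lost with a library left out. For XIAP these were Non-target replicate 1 and MLPH-CKO replicates 2 and 3 (adjusted p up to 0.119), and for HTRA2 any of the 6 but C9orf89-CKO replicate 1 (up to 0.129).

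The BCL2 family, to which BID belongs, had 14 of 15 genes tested. C9orf89-CKO and MAGI2-CKO each had 3 lower and 1 higher. MLPH-CKO had 6 lower and 1 higher, and RHBDD2-CKO 3 lower and 3 higher. BBC3, which encodes the death-promoting protein PUMA, had a mean of 8.63 ± 1.07 FPKM for Non-target. It fell to 4.04 ± 0.465 FPKM in C9orf89-CKO (log2 fold change −1.07, adjusted p = 0.000130 in limma) and to 5.28 ± 0.573 FPKM in RHBDD2-CKO (−0.70, adjusted p = 0.00223). It fell to 5.36 ± 0.688 FPKM in MLPH-CKO (−0.68, adjusted p = 0.00292 in limma) and to 6.24 ± 1.06 FPKM in MAGI2-CKO (−0.47, adjusted p = 0.0202), the latter lost without Non-target replicate 2 or MAGI2-CKO replicate 1 (up to 0.0879). BCL2L11, which encodes the death-promoting protein BIM, rose from 3.91 ± 0.352 to 9.11 ± 0.212 FPKM in MAGI2-CKO (1.20, adjusted p = 2.05e-07 in limma). Its differences of −0.22 in MLPH-CKO (adjusted p = 0.0467 in limma) and 0.24 in RHBDD2-CKO (adjusted p = 0.0340) rested on single libraries. The former was lost without Non-target replicate 1 or 3 or MLPH-CKO replicate 1 or 2 (adjusted p up to 0.174), and the latter without Non-target replicate 2 or RHBDD2-CKO replicate 3 (up to 0.147). In MAGI2-CKO BID, BIK and HRK fell, HRK by 1.02 (adjusted p = 1.24e-06 in limma), so that BH3-only genes, which promote death, moved in both directions. HRK also fell by 0.30 in C9orf89-CKO (adjusted p = 0.0158 in limma) and by 0.25 in MLPH-CKO (adjusted p = 0.0350), and both were lost without Non-target replicate 1 or replicate 1 of the clone, the latter also without replicate 2 of either group (up to 0.115).

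BIK had a mean of 1.26 ± 0.289 FPKM for Non-target. It fell to 0.450 ± 0.0827 FPKM in MAGI2-CKO (log2 fold change −1.30, adjusted p = 0.000480 in limma) and rose to 2.62 ± 0.374 FPKM in RHBDD2-CKO (1.01, adjusted p = 0.00337 in limma). Its fall of 0.78 in MLPH-CKO (adjusted p = 0.0165 in limma) was lost without Non-target replicate 2 or MLPH-CKO replicate 1 (adjusted p up to 0.0712). PMAIP1, which encodes NOXA, rose by 0.29 in MLPH-CKO (adjusted p = 0.0106 in limma) and by 0.25 in C9orf89-CKO (adjusted p = 0.0288). The latter call was lost without Non-target replicate 2 or 3 or C9orf89-CKO replicate 1 or 3 (adjusted p up to 0.0913).

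Markers of HEK293T cells and of the other cells used in the study were read in the same libraries. Of the 8 HEK293T markers, VIM was the most abundant. NEFM was at the limit of detection in MAGI2-CKO, with 6, 0 and 1 fragments in its wells, where the mean of 0.0274 FPKM was below the level of 3 fragments in each of its libraries (0.0351 FPKM or more), and the other 7 were found in every group. The median of their summed level was 143 FPKM for Non-target, 163 for C9orf89-CKO, 150 for MAGI2-CKO, 202 for MLPH-CKO and 97.4 for RHBDD2-CKO. The low sum in RHBDD2-CKO went with NEFL, which fell by 4.12 from 18.8 to 0.984 FPKM (adjusted p = 3.02e-11 in limma), and with NEFM. The 6 markers of monocytic leukaemia cells summed to at most 1.19 FPKM in any library, with SPI1 the most abundant in Non-target and ITGB2 in the clones. ITGB2 held 0.553, 0.698 and 0.792 FPKM in the MAGI2-CKO wells, 0.395, 0.390 and 0.441 FPKM in the MLPH-CKO wells and at most 0.235 FPKM in the Non-target wells. It passed the filter only through MAGI2-CKO, where it was highest, so that its values are a description with no test. SPI1 and CD33 were under the filter and not tested. SPI1 had a mean of 0.214 FPKM in the control wells, 0.273 for MAGI2-CKO, 0.0777 for C9orf89-CKO, 0.0788 for MLPH-CKO and 0.0464 for RHBDD2-CKO. CD33 had 9 fragments over the Non-target wells and at most 6 over those of any clone. PTPRC, which defines leukocytes, was at 0 in all groups but MLPH-CKO, where its mean was 0.00397 FPKM. The 6 markers of mesenchymal stroma summed to at most 5.49 FPKM in any library, most of it COL1A1. COL1A2 was at 0 in C9orf89-CKO and MAGI2-CKO with a mean of at most 0.00186 FPKM elsewhere, and THY1 was at 0 in Non-target, MLPH-CKO and RHBDD2-CKO. COL1A1 had a mean of 2.43 FPKM for Non-target and rose in C9orf89-CKO, to 4.12 FPKM (adjusted p = 0.00739 in limma), in MAGI2-CKO, to 4.74 FPKM (adjusted p = 0.00110), and in MLPH-CKO, to 4.48 FPKM (adjusted p = 0.00311). LUM, under the filter and not tested, went the other way, with a mean of 0.714 FPKM for Non-target, 0.0134 for C9orf89-CKO, 0.148 for MAGI2-CKO, 0.0478 for MLPH-CKO and 0.281 for RHBDD2-CKO, whose wells alone overlapped with Non-target. The part of these differences in the values of the TRAIL genes was not tested.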

How the data were processed

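RNA of 15 HEK293T cultures (NEBNext Ultra libraries, Illumina NovaSeq) was analysed from 1 deposited table per library. Per the labels, HISAT2 2.0.5, featureCounts 1.5.0-p3 and DESeq2 were among the authors' tools, and their roles, the genome build and the strand setting were not given in the sources used here. The deposited values proved to be FPKM. When an FPKM value was multiplied with the GENCODE v29 exon length of the gene (GRCh38), a whole number of steps of a size fixed per library resulted in 100% of cases, within 0.02. These whole fragments (262601551 in all) gave the depth, the floor of 3 fragments and the voom alternative. Intervals and floors cover counting error only.

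The 16175 genes that reached 0.5 FPKM in 3 libraries or more were fitted as log2(FPKM + 0.1) with limma 3.58.1 (R 4.3.3), in 1 model of the 5 groups with eBayes and a trend. Each clone was contrasted with Non-target and with every other clone, and Benjamini-Hochberg adjustment covered all tested genes of a contrast (threshold 0.05). For a low gene this scale gives too small a fold change. The members and lists were chosen with earlier results of these data known. Named beside the members were the 4 targeted genes, the 5 genes most correlated with TNFRSF10D, the genes next to the receptor cluster, the defining markers and, per list and clone, the largest rise and fall among genes past the threshold with non-overlapping wells and a mean of at least 1 FPKM. R3HCC1, LOXL2, HRK and other genes named outside this rule were picked after their values were seen. On data simulated for RHBDD2-CKO against Non-target (16175 genes, 200 of them changed by 2 on the log2 scale), the fit recovered 170 and called 13 unchanged genes. The simulated noise was independent between wells and RHBDD2-CKO alone was changed. In the data 5511 genes passed the threshold for this contrast, so that these rates do not carry over. Alternatives were other filters, pseudocounts of 1 and 0.01, TPM, quantile normalization, no trend, the 2 groups alone, the replicate number as a block, voom and each library left out. Leaving out the wells numbered 1, the genes around CASP10 and the omission of libraries for the lists were added after seeing the data.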

Additional observations from a re-analysis of the deposited data

How the results depend on the processing

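TNFRSF10D in its 3 tested comparisons with Non-target, TNFRSF10B in C9orf89-CKO and BID in MAGI2-CKO stayed past the threshold under every setting tried, as did CASP10 in C9orf89-CKO, MAGI2-CKO and RHBDD2-CKO wherever it passed the filter. The 2 members lower in MLPH-CKO became 1 with no filter, a mean of at least 1 FPKM, a pseudocount of 0.01, TPM and the 2 groups alone, and 1 to 3 with 1 library left out. The 2 in RHBDD2-CKO became 1 with TPM and with a mean of at least 1 FPKM, which leaves CASP10 untested. Some differences that were not past the threshold changed sign. CFLAR in C9orf89-CKO ran from −0.0158 to 0.126 with 1 library left out and was −0.0187 without the wells numbered 1. In MAGI2-CKO it ran from −0.0500 to 0.109 and was −0.0744 with quantile normalization and −0.0530 without those wells. In MLPH-CKO it ran from −0.0706 to 0.0538 and was 0.0211 with voom. BID in MLPH-CKO ran from −0.116 to 0.0705 and was 0.0017 with quantile normalization and 0.0140 with voom, and in RHBDD2-CKO it was 0.0109 with TPM. The cause was not tested.

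The labels do not say what wells of the same number share. The correlation of their deviations from the group means had a median of 0.0856 over 30 pairs (from 0.00103 to 0.312, 12 over 0.1), against −0.0887 over 60 pairs of different numbers (2 over 0.1). A library correlated best with its own number in 41 of 60 cases of a library and another group, and 6 of 15 libraries did so for every other group, which is a hint from the data and not from the design. A fit that blocks on this number put 5718 genes of all past the threshold for C9orf89-CKO (4210 without the block), 7169 for MAGI2-CKO (5835), 6292 for MLPH-CKO (4865) and 7036 for RHBDD2-CKO (5511). The block took BID in C9orf89-CKO (adjusted p = 0.00706 in limma) and TNFRSF10B in MLPH-CKO (0.0177) past the threshold, and CASP10 in MLPH-CKO below it (0.0528). At 1 to 4 fragments per library, the level of TNFRSF10D in RHBDD2-CKO and those of TNFRSF10C and TNFSF10 are limited by depth.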
